A study of Caenorhabditis elegans with 11 samples.

Results

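The genes gpx-4 (WBGene00022377) and osgn-1 (WBGene00017934) of the nematode Caenorhabditis elegans are described here in every library of both count tables. They are 2 of the 46904 gene rows of each table. Both were chosen by name after their values in these tables were known, and the genotype contrast of both assays counts as used in that choice, so their own differences are given as descriptions without a test. The libraries were made from RNA of gonads, labelled germline, of adults on the first day of adulthood. The wild-type groups are strain N2, and the mutant groups are strain RB950 with the genotype cup-4(ok837), a deletion allele. Antisense small RNA was counted in 3 libraries of each genotype. Counts of mRNA came from 2 wild-type libraries (replicates 2 and 3) and 3 cup-4 libraries, for which the sample labels give polyA RNA and the text on the series' design gives total RNA. The replicate number is also the batch number in the labels. RB950 is a single strain, so the deletion cannot be told apart from any other difference between RB950 and N2. The labels do not say how many animals or gonads went into a library.

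As background, glutathione peroxidases reduce hydrogen peroxide and lipid peroxides with glutathione as the electron donor, and gpx-4 encodes a member of this family. The protein of osgn-1 is related to the human oxidative stress-induced growth inhibitors and resembles flavin-containing monooxygenases, and in C. elegans it is known for stabilizing the intercellular bridge that remains after incomplete cytokinesis of germline precursor cells. In the C. elegans germline, RNA-dependent RNA polymerases copy mRNA into short antisense RNAs. Argonaute proteins bind these RNAs, and some of them silence the matching gene while others mark genes that are expressed. The gene cup-4 is known for its role in uptake by coelomocytes, scavenger cells of the body cavity.

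Counts assigned to genes summed to between 14858199 and 39310540 per small RNA library and to between 21290140 and 29559542 per mRNA library. Levels are given in CPM, counts scaled to a common library total with TMM factors. The mRNA of cup-4 itself had 117 and 85 reads in the wild-type libraries, against 23, 37 and 20 reads in cup-4 libraries 1, 2 and 3, in the direction of the labels. Markers of germ cells and oocytes were abundant in mRNA, with pgl-1, a P-granule component, at 321 to 513 CPM and rme-2, the yolk receptor of oocytes, at 3426 to 8812 CPM over both genotypes. The summed mRNA of 20 intestine markers was 5354 and 4341 CPM in the wild-type libraries, against 146068, 25259 and 45576 CPM in cup-4 libraries 1, 2 and 3, and 17 of the 20 were higher without overlap, as were 20.1% of all genes tested in mRNA. Of the defining intestine markers, ges-1 was at 0.930 to 1.77 CPM of mRNA in wild type and did not overlap with cup-4, at 4.51 to 9.00 CPM. The other, elt-2, overlapped between genotypes, at 0.202 to 1.26 CPM and 0.729 to 1.42 CPM.

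In gpx-4 the assays differed in opposite directions, with more antisense small RNA and less mRNA in the mutant gonad. Its antisense small RNA was at 73.6, 107 and 75.5 CPM in wild-type libraries 1, 2 and 3 (1353, 4268 and 1701 reads). In cup-4 libraries 1, 2 and 3 it was at 189, 192 and 178 CPM (3230, 2949 and 4213 reads). The lowest cup-4 library was 1.66 times the highest wild-type library, and the cup-4 libraries lay closer together than the wild-type libraries, among which library 2 was the highest. The group means were 85.4 ± 18.8 CPM and 186 ± 7.48 CPM (SD, n = 3 each), and the fitted log2 fold change, cup-4 over wild type, was 1.12 (SE 0.15). Within batches 1, 2 and 3 the cup-4 library had 2.56, 1.79 and 2.35 times the level of its wild-type partner.

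The mRNA of gpx-4 was at 25.2 and 27.99 CPM in wild-type libraries 2 and 3 (641 and 692 reads). It was at 6.21, 7.32 and 5.88 CPM in cup-4 libraries 1, 2 and 3. All 3 cup-4 libraries were low, and the lowest wild-type library was 3.45 times the highest of them. The means were 26.6 ± 1.96 CPM (SD, n = 2) and 6.47 ± 0.754 CPM (SD, n = 3), and the fitted log2 fold change was -2.04 (SE 0.24), a level 4.11-fold lower. Within batches 2 and 3 the wild-type library had 3.45 and 4.76 times the level of the cup-4 library, and batch 1 holds no wild-type mRNA library. The cup-4 counts are small enough that counting error alone is 6.58% to 9.17% of a value, beside a replicate spread of 11.7%. In such bulk libraries, fewer cells that express a gene and less of its RNA per cell cannot be told apart.

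In osgn-1 both assays were lower in the mutant. Its antisense small RNA was at 54.9, 46.3 and 49.6 CPM in wild-type libraries 1, 2 and 3 (1009, 1846 and 1118 reads). It was at 14.8, 12.6 and 13.8 CPM in cup-4 libraries 1, 2 and 3 (253, 193 and 327 reads). The groups were far apart, since the lowest wild-type library was 3.13 times the highest cup-4 library. The means were 50.3 ± 4.35 CPM and 13.7 ± 1.10 CPM (SD, n = 3 each), and the fitted log2 fold change was -1.87 (SE 0.11), a level 3.66-fold lower. The difference was nearly the same in each batch, where wild type had 3.72, 3.68 and 3.60 times the level of cup-4 in batches 1, 2 and 3.

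The mRNA of osgn-1 was at 82.0 and 92.0 CPM in wild-type libraries 2 and 3 (2084 and 2274 reads). It was at 30.8, 38.03 and 37.1 CPM in cup-4 libraries 1, 2 and 3 (591, 1200 and 864 reads). Again no cup-4 library reached a wild-type library, and the lowest wild-type library was 2.16 times the highest cup-4 library. The means were 87.0 ± 7.06 CPM (SD, n = 2) and 35.3 ± 3.92 CPM (SD, n = 3), and the fitted log2 fold change was -1.30 (SE 0.19), a level 2.46-fold lower. Within batches 2 and 3 wild type had 2.16 and 2.48 times the level of cup-4.

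**Figure D1:**
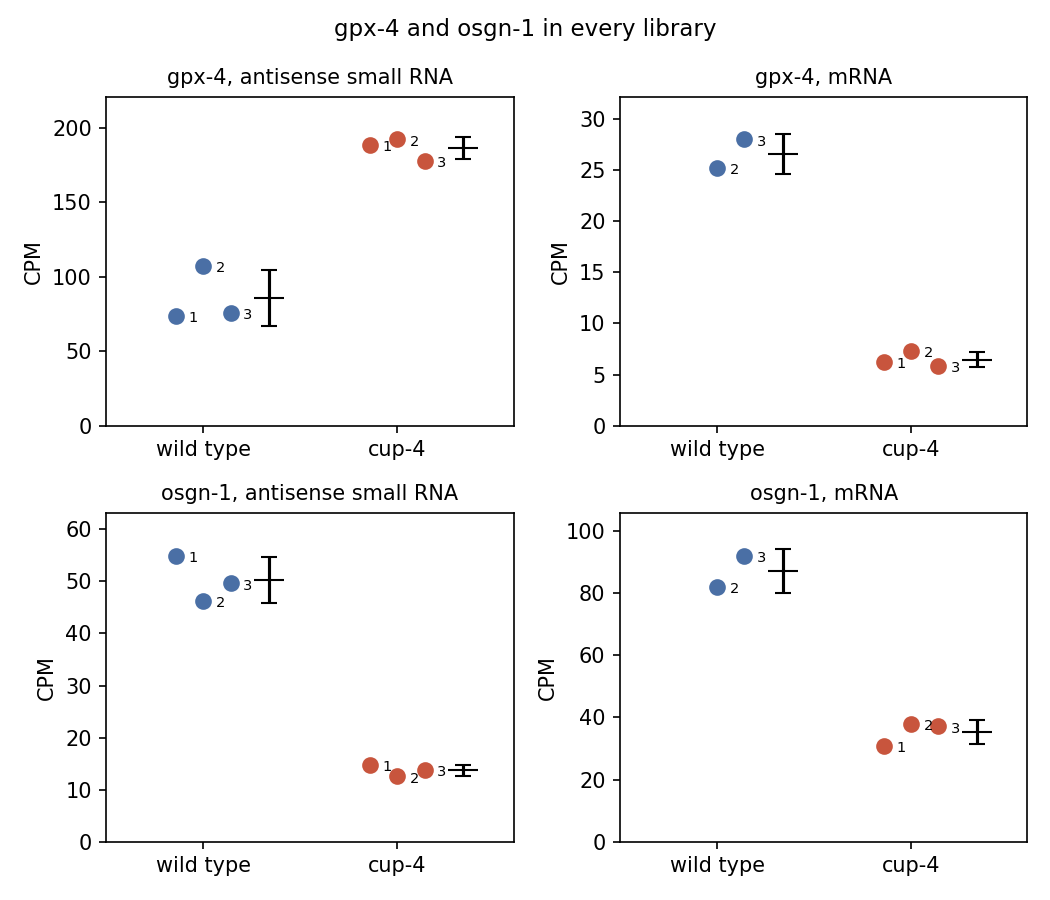
Level of each gene in CPM (vertical axes, starting at 0) in wild-type (blue) and cup-4 (red) libraries, one panel per gene and assay. Points are libraries with their replicate number, and black bars are the mean and SD of a genotype. For gpx-4 the red points are above the blue in small RNA and below them in mRNA, and for osgn-1 they are below in both.

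A lack of overlap between the genotypes is common in these tables, and nothing is read from it for genes chosen on these values. In small RNA 15.8% of the 13336 genes tested had every cup-4 library above every wild-type library, as gpx-4 did, and 14.8% had every cup-4 library below, as osgn-1 did. In mRNA 17.8% of 12861 genes had every cup-4 library below, as both genes did, and 20.1% had every cup-4 library above. Of the 10163 genes tested in both assays, 146 (1.44%) shared the pattern of gpx-4, higher in small RNA and lower in mRNA without overlap, and 460 (4.53%) shared that of osgn-1, lower in both. The remaining patterns were 5.16% for higher in both and 1.26% for lower in small RNA and higher in mRNA.

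By size, the differences of both genes stood toward the ends of the distributions. Both genes were chosen on these values, so the ranks are descriptions and nothing is read from them. Among genes with a mean of at least 10 CPM, the mRNA log2 fold change of gpx-4 was the 5th lowest of 6096 and that of osgn-1 ranked 27 from the lowest. The mRNA of gpx-4 reached that mean only through wild type, at 26.6 CPM against 6.47 CPM in cup-4. In small RNA, among 6927 such genes, osgn-1 ranked 17 from the lowest and gpx-4 ranked 84 from the highest. Over all genes tested, which include genes of low counts, gpx-4 ranked 872 from the highest of 13336 in small RNA and 44 from the lowest of 12861 in mRNA. There osgn-1 ranked 40 and 199 from the lowest. When a log2 fold change past 1 in both assays was also required, 8 genes remained with more small RNA and less mRNA, and 13 with less of both. Of these, 2 in each group reached a mean of 10 CPM both in small RNA and in mRNA. They were gpx-4 and C08F11.7 (WBGene00007454) in the first group, and osgn-1 and haf-6 (WBGene00001816) in the second. Nothing is read from the place of gpx-4 and osgn-1 among these genes, as they were chosen on these values. The small RNA of haf-6, like the mRNA of gpx-4, passed 10 CPM only through wild type, and was at 6.59 CPM in cup-4. C08F11.7 and haf-6 are named here after their values were seen. The small RNA and mRNA log2 fold changes of C08F11.7 were 2.30 (SE 0.21) and -3.21 (SE 0.30).

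**Figure D2:**
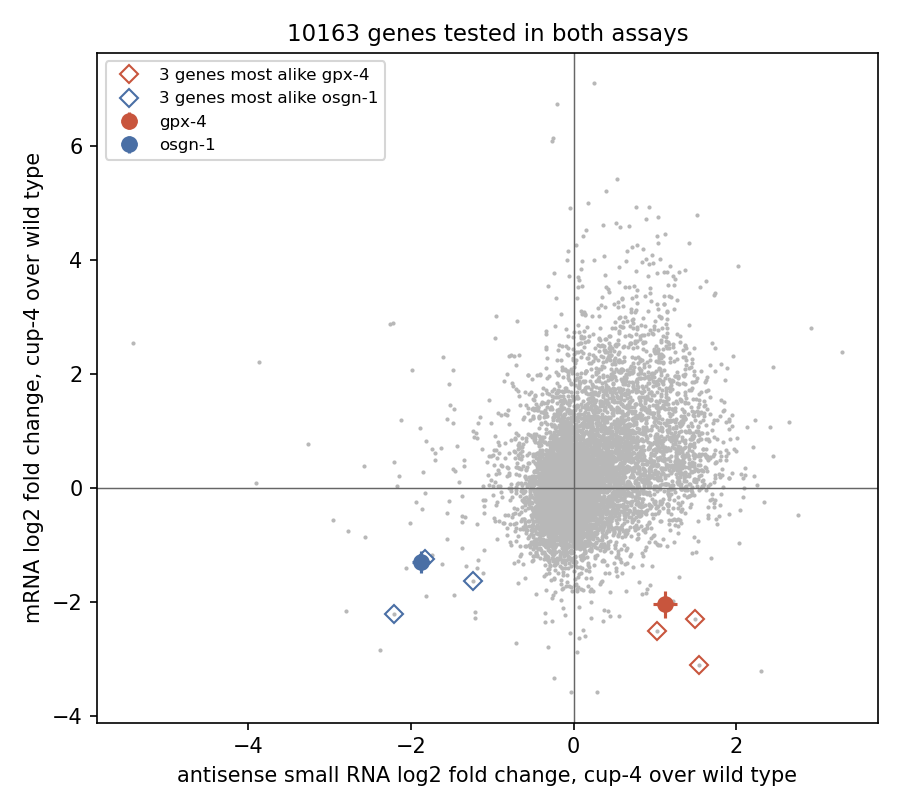
Log2 fold change of antisense small RNA (horizontal axis) against that of mRNA (vertical axis), cup-4 over wild type, for the 10163 genes tested in both assays (grey). Filled circles with SE bars are gpx-4, at 1.12 and -2.04, and osgn-1, at -1.87 and -1.30, and open diamonds are the 3 genes most alike each of them.

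Antisense small RNA was then set against mRNA library by library, as the quotient of small RNA CPM and mRNA CPM of the libraries that share genotype and batch number. Whether such libraries come from the same RNA is not stated. CPM of the assays are on separate scales, so the quotient can be compared between libraries and ranked among genes but has no absolute meaning. For gpx-4 the quotient was 4.24 and 2.70 in wild-type batches 2 and 3, against 30.4, 26.2 and 30.2 in cup-4 batches 1, 2 and 3. The mean log2 quotient was 1.76 in wild type and 4.85 in cup-4. Both genes were chosen on these values, so the quotients are descriptions. The share of all genes without overlap in the quotient was not computed. Among the 9977 to 10161 genes ranked in each library pair, gpx-4 was at percentile 71.1 to 78.8 in the wild-type pairs, against 91.7 to 93.7 in the mutant pairs. For osgn-1 the quotient was 0.565 and 0.540 in the wild-type pairs, against 0.479, 0.330 and 0.372 in the mutant pairs. The shift was small: the mean log2 quotient was -0.86 in wild type and -1.36 in cup-4. The gene stayed between percentile 23.3 and 33.7 in all 5 pairs. In all 5 pairs, of both genotypes, osgn-1 had less small RNA per mRNA than the median gene, for which the quotient was 0.939 to 1.08.

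**Figure D3:**
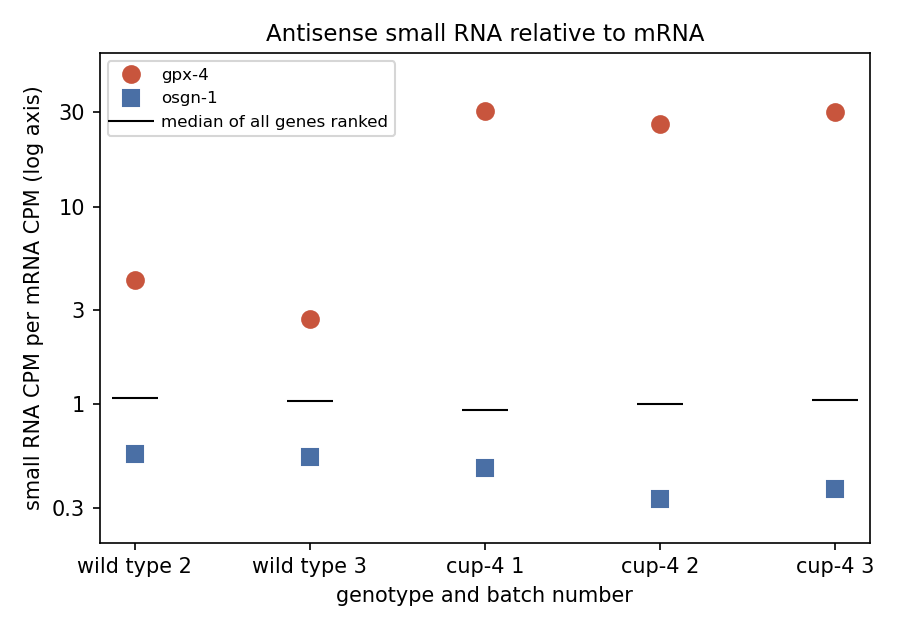
Small RNA CPM per mRNA CPM (log axis) in the 5 pairs of libraries that share genotype and batch number. Circles are gpx-4, squares are osgn-1 and black dashes the median of all genes ranked. The circles lie at 2.70 to 4.24 for wild type, against 26.2 to 30.4 for cup-4, and the squares lie below the dashes in all pairs.

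The genes whose profile over all 11 libraries was most alike that of each member were found by the root mean square difference in log2(CPM + 1), centred within each assay, over the 8055 genes that reached a mean of 1 CPM in each assay. This likeness is a description and carries no statement on shared function. For gpx-4 they were WBGene00021055, WBGene00014672 and WBGene00050946, which have no symbol in the table of gene names. Their differences were 0.203, 0.256 and 0.389 against a median over all genes of 0.806. The mRNA of WBGene00014672 and WBGene00050946 was low and reached 1 CPM only through wild type. It was at 2.45 and 2.64 CPM in wild type against 0.282 and 0.465 CPM in cup-4. The nearest, WBGene00021055, had 110 ± 1.63 CPM of small RNA in wild type and 309 ± 41.97 CPM in cup-4 (SD, n = 3 each). Its mRNA was at 9.51 ± 1.71 CPM (SD, n = 2) and 1.92 ± 0.188 CPM (SD, n = 3). For osgn-1 the most alike genes were T22F7.1, haf-6 and F54C9.11, at 0.291, 0.393 and 0.423 against a median of 0.803. The mRNA of F54C9.11 also reached 1 CPM only through wild type, at 2.13 CPM against 0.894 CPM in cup-4. The gene haf-6 encodes an ABC transporter known to be needed for efficient RNA interference. Its small RNA was at 30.6 ± 0.709 CPM in wild type and 6.59 ± 0.267 CPM in cup-4 (SD, n = 3 each), and its mRNA at 153 ± 64.7 CPM (SD, n = 2) and 33.1 ± 8.27 CPM (SD, n = 3). At a minimum of 10 CPM in place of 1, the genes nearest to gpx-4 were all others, F44G4.3, R06C1.4 and fbxb-7, at 0.413 to 0.430, and haf-6 was the nearest to osgn-1.

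Both genes lie on chromosome IV, and cup-4 lies on chromosome III. In the RefSeq annotation of assembly WBcel235, which corresponds to the build ce11 of the submitters' processing notes, gpx-4 (locus Y94H6A.4) spans chrIV:2672962-2675015, 2054 bases. The span of osgn-1 (locus F30B5.4) is chrIV:4207388-4218265, 10878 bases. Both are protein-coding, and the spans of both overlap 0 other annotated genes of that table. The 3 annotated genes on each side were examined next, 12 in all, of which 10 were tested in small RNA and 4 in mRNA. In edgeR's quasi-likelihood test 0 of them had an adjusted p under 0.05 in either assay. At an unadjusted p under 0.05 there were 2 in small RNA and 0 in mRNA, DESeq2 called 2 and 0, and limma-voom called 0 in each. Over all genes, edgeR called 1.12% in small RNA (149 genes, and 263 with the replicate block). In mRNA it called 0.0% (0 genes, and 199 with the replicate block), where 2209 had an unadjusted p under 0.05. Among all genes DESeq2 called 1173 in small RNA and 981 in mRNA, and limma-voom 186 and 0. Over all genes an unadjusted p under 0.05 was found for 22.8% in small RNA (3038 genes) and 17.2% in mRNA, so 2 of 10 neighbours in small RNA is near the share of all genes.

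The genes that flank gpx-4 were at like levels in the genotypes. Y69A2AR.1, which ends 758 bases before gpx-4, had 18.9 ± 1.22 CPM of small RNA in wild type and 17.9 ± 1.66 CPM in cup-4 (SD, n = 3 each), a log2 difference of -0.073 (SE 0.12). Y94H6A.3, which starts 1496 bases after gpx-4, had 55.0 ± 9.33 and 54.4 ± 2.99 CPM, a log2 difference of -0.014 (SE 0.13). Their mRNA log2 fold changes were -0.18 (SE 0.24) and -0.28 (SE 0.25). The small RNA values of the remaining neighbours, the noncoding genes Y69A2AR.37, Y69A2AR.38, Y94H6A.16 and Y94H6A.17, were -0.58 (SE 0.62), -0.45 (SE 0.38), 0.041 (SE 0.22) and -0.092 (SE 0.52), all at low levels of 0.538 to 3.03 CPM. The mRNA of Y94H6A.16, the third neighbour tested in mRNA, had -0.78 (SE 0.54). Against these, the small RNA log2 fold change of gpx-4 was 1.12 (SE 0.15).

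Beside osgn-1, the neighbours with an unadjusted p under 0.05 in small RNA lay on opposite sides and differed in opposite directions. F30B5.11 starts 1005 bases after osgn-1, and its small RNA was at 1.79 ± 0.288 CPM in wild type and 0.693 ± 0.359 CPM in cup-4 (SD, n = 3 each). Its log2 fold change of -1.39 (SE 0.41) had the sign of that of osgn-1 but did not pass in edgeR's quasi-likelihood test (adjusted p 0.125, range over its alternatives 0.0351 to 0.288). K06B9.6 ends 10558 bases before osgn-1. Its small RNA was at 390, 331 and 313 CPM in wild-type libraries 1, 2 and 3 and 656, 522 and 450 CPM in cup-4. Every cup-4 library was above every wild-type library, with a log2 difference of 0.66 (SE 0.15, edgeR adjusted p 0.0900, range over its alternatives 2.95e-08 to 0.297). With the replicate block K06B9.6 passed (log2 fold change 0.64, adjusted p 0.0338). Its mRNA was low, 1.57 ± 0.505 CPM (SD, n = 2) against 0.626 ± 0.270 CPM (SD, n = 3), a log2 difference of -1.31 (SE 0.64). The nearest gene before osgn-1, pax-2, which encodes a paired-box transcription factor, had 0.830 ± 0.245 and 0.654 ± 0.393 CPM of small RNA (SD, n = 3 each) and at most 1 mRNA read in any library. The next, cyp-25A6, a cytochrome P450 gene, was at 0.527 ± 0.266 and 0.391 ± 0.356 CPM. On the other side srbc-71, of a chemoreceptor family, had at most 3 small RNA reads in any library, and the pseudogene srbc-72 was not matched to a gene identifier.

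The other 7 glutathione peroxidase genes were compared with gpx-4 to see whether the family shared its pattern. Of these, only gpx-1, gpx-2 and gpx-6 were tested in both assays, so the others could not show it. In edgeR's quasi-likelihood test 0 of the 4 tested in small RNA and 0 of the 6 tested in mRNA passed the threshold. At an unadjusted p under 0.05 there were 1 and 0, where all genes had 22.8% and 17.2%, so the 1 of 4 is near the share of all genes. Their median log2 fold changes were -0.13 in small RNA and 0.22 in mRNA, beside 0.0065 and 0.16 over all genes tested. The 1 was gpx-2, with small RNA at 23.9 ± 0.901 CPM in wild type and 18.9 ± 1.88 CPM in cup-4 (SD, n = 3 each), a log2 difference of -0.33 (SE 0.11, edgeR adjusted p 0.150, range over alternatives 0.101 to 0.473). Its mRNA was at 2.07 ± 0.0723 CPM (SD, n = 2) and 1.69 ± 0.199 CPM (SD, n = 3).

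The small RNA of gpx-8 was at 558 ± 11.4 CPM in wild type and 519.6 ± 36.4 CPM in cup-4 (SD, n = 3 each), while its mRNA was at 0.201 ± 0.173 CPM (SD, n = 2) and 0.324 ± 0.0166 CPM (SD, n = 3). The small RNA log2 fold change of gpx-8 was -0.10 (SE 0.080). That of gpx-6 was -0.15 (SE 0.12), from 24.2 ± 1.92 to 21.9 ± 2.15 CPM, and that of gpx-1 was 0.29 (SE 0.24), from 3.92 ± 1.10 to 4.79 ± 0.0491 CPM. The remaining genes, gpx-3, gpx-5 and gpx-7, had small RNA below 0.2 CPM in both genotypes. In mRNA, gpx-7 was at 3.52 ± 2.86 CPM (SD, n = 2) and 10.6 ± 4.48 CPM (SD, n = 3), a log2 difference of 1.59 (SE 0.68, edgeR adjusted p 0.308, range over alternatives 0.109 to 0.552). This value of gpx-7 became 2.82 when wild-type replicate 2 was left out, and 0.87 when replicate 3 of wild type was. The mRNA log2 fold changes of gpx-1, gpx-3, gpx-5 and gpx-6 were 0.38 (SE 0.55), 0.45 (SE 0.67), 0.060 (SE 0.50) and -0.53 (SE 0.54), all within about 1 SE of 0. The first 3 of these turned negative under some alternatives. CPM are not per length, so levels are not compared between genes.

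**Figure D4:**
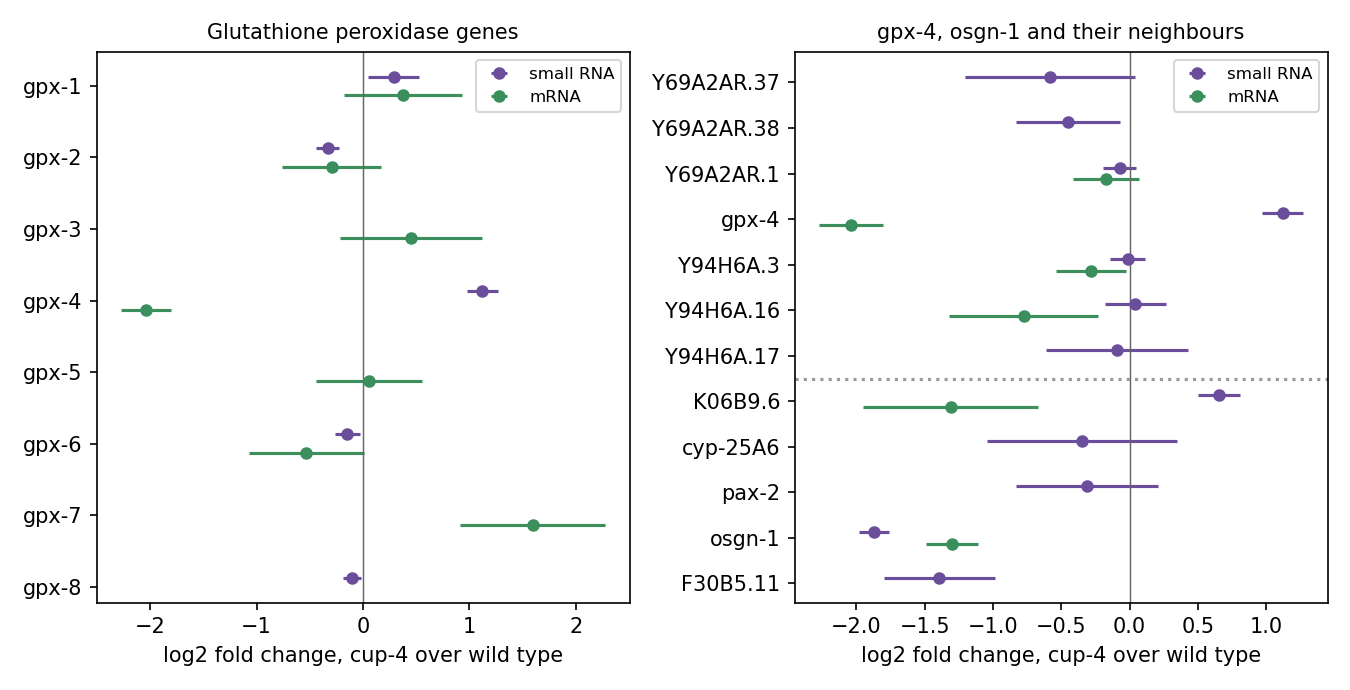
Log2 fold change, cup-4 over wild type (horizontal axes), of antisense small RNA (purple) and mRNA (green) with SE bars, for the glutathione peroxidase genes (left) and for both genes with the tested neighbours in chromosome order (right, dotted line between the loci). A gene without a point in a colour was not tested in that assay. In the left panel the bars of gpx-4, at 1.12 and -2.04, lie on opposite sides of 0 and apart from it. Of the other genes there, only gpx-1, gpx-2 and gpx-6 have points in both colours, and these lie on the same side of 0. In the right panel the bars of K06B9.6, at 0.66 and -1.31, also lie on opposite sides of 0 and apart from it.

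Further genes of hydrogen peroxide and glutathione metabolism were taken from 7 lists, which include the peroxidases above, of 96 genes in all. In edgeR's quasi-likelihood test 0 of 56 tested in small RNA and 0 of 71 tested in mRNA passed. At an unadjusted p under 0.05, 2 were higher and 6 lower in small RNA, where the shares of all genes were 11.7% and 11.1%. In mRNA 7 were higher and 12 lower, where the shares of all genes were 10.8% and 6.35%. DESeq2 called 1 in small RNA and 7 in mRNA, and limma-voom called 0 in each. Among all genes DESeq2 called 1173 in small RNA and 981 in mRNA, where edgeR tested 13336 and 12861. The median log2 fold changes were -0.0030 in small RNA and 0.0075 in mRNA, beside 0.0065 and 0.16 over all genes tested. The lists with the lowest mRNA medians were the thioredoxins and peroxiredoxins, at -0.52 with 1 of 8 genes above 0, and glutathione synthesis and recycling. The latter was at -0.46 with 0 of 9 genes above 0. In these lists 6 of 8 and 6 of 9 genes were lower in mRNA without overlap and 0 higher. In each, 4 genes were lower at an unadjusted p under 0.05 in edgeR's quasi-likelihood test. Over all 71 redox genes tested in mRNA, 20 were lower and 10 higher without overlap, where the shares of all genes were 17.8% and 20.1%. The glutathione S-transferases, which attach glutathione to other molecules, had an mRNA median of 0.094 over 30 tested genes and a small RNA median of 0.12 over 19. The mRNA and small RNA medians were -0.27 and -0.13 for superoxide dismutases and catalases, -0.056 and 0.33 for flavin monooxygenases, and 0.35 and -0.081 for regulators of the oxidative stress response.

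The genes of lowest mRNA p among them were glrx-21, prdx-3, trx-4 and glrx-10, all lower in cup-4. The glutaredoxin gene glrx-21 was at 25.4 ± 1.76 CPM (SD, n = 2) and 13.2 ± 1.16 CPM (SD, n = 3), a log2 difference of -0.94 (SE 0.21, edgeR adjusted p 0.147, range over alternatives 0.0136 to 0.317). The mitochondrial peroxiredoxin gene prdx-3 was at 204 ± 10.9 and 116 ± 13.6 CPM, a log2 difference of -0.81 (SE 0.21). That of trx-4, a thioredoxin gene, was -0.99 (SE 0.26), and that of glrx-10 was -0.83 (SE 0.23). DESeq2 called the first 3, with adjusted p of 0.0136, 0.0368 and 0.0437. The other 4 of its 7 mRNA calls, named here after their values were seen, were higher in cup-4. They were gst-6 and gst-38, which encode glutathione S-transferases, the flavin monooxygenase gene fmo-1 and the catalase gene ctl-2. DESeq2 gave them log2 fold changes of 2.34, 1.82, 1.77 and 1.59, with adjusted p of 0.0119, 0.0327, 0.0396 and 0.0349. In edgeR's quasi-likelihood test their adjusted p were 0.174, 0.172, 0.228 and 0.206. The mRNA of gst-6 and gst-38 was low in wild type, at 0.654 and 0.677 CPM. In small RNA the genes of lowest p were hlh-30, gpx-2, gsr-1 and ctl-3. The transcription factor gene hlh-30 was at 17.7 ± 3.16 CPM and 26.1 ± 2.68 CPM (SD, n = 3 each), a log2 difference of 0.55 (SE 0.15, edgeR adjusted p 0.118, range over alternatives 0.0164 to 0.346). The glutathione reductase gene gsr-1 had -0.30 (SE 0.11) and the catalase gene ctl-3 had -0.51 (SE 0.18).

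For osgn-1, 19 genes of cytokinesis and of the intercellular bridges of the germline were examined. All were tested in both assays, and in small RNA 1 was called lower and 0 higher in edgeR's quasi-likelihood test, where 0.337% of all genes were called lower. It was spd-1, which encodes a microtubule-bundling protein of the central spindle, with 694 ± 30.99 CPM in wild type and 498 ± 9.67 CPM in cup-4 (SD, n = 3 each), a log2 difference of -0.48 (SE 0.074, edgeR adjusted p 0.0345, range over alternatives 2.07e-05 to 0.191). This call was lost with the replicate block, under total counts, with batches 2 and 3 alone, and without any of cup-4 replicates 1, 2 or 3 or wild-type replicates 2 or 3. The genes next in p, icp-1 and csc-1, encode subunits of the chromosomal passenger complex and had -0.41 (SE 0.073) and -0.42 (SE 0.099), with edgeR adjusted p of 0.0534 and 0.0905. The list's small RNA median was -0.15 beside 0.0065 over all genes, and 7 of 19 genes did not overlap, all lower, where 14.8% of all genes were lower without overlap. Germline markers had lower small RNA too, with a median of -0.20, 7 of 12 lower without overlap, beside the same 14.8%, and 1 called. Their summed small RNA was 2185 to 2398 CPM for wild type, against 1860 to 2003 CPM for cup-4, and their part in these values was not tested.

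In mRNA 0 of the 19 passed in edgeR's quasi-likelihood test, 1 had an unadjusted p under 0.05, and DESeq2 and limma-voom called 0. Of all genes tested in mRNA, 17.2% had an unadjusted p under 0.05, and DESeq2 called 981. The lowest p was that of bir-1, which encodes another subunit of the chromosomal passenger complex, at 28.4 ± 4.97 CPM (SD, n = 2) and 16.9 ± 0.422 CPM (SD, n = 3), a log2 difference of -0.74 (SE 0.21, edgeR adjusted p 0.179, range over alternatives 0.0972 to 0.387). The formin gene cyk-1 and the bridge gene cyk-7 had 0.52 (SE 0.29) and -0.43 (SE 0.24). The mRNA median of the list was 0.077 beside 0.16 over all genes. Against this list, osgn-1 had -1.87 in small RNA and -1.30 in mRNA.

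Markers of other cell types were set beside the mRNA values first, and then beside the small RNA values. Of the intestine markers 20 of 20 had an mRNA log2 fold change above 0, with a median of 2.25, and of the muscle markers 11 of 11, with a median of 1.94. Markers of the gonadal sheath and spermatheca had 8 of 10 above 0, with a median of 0.78, and neuron markers 4 of 7, with a median of 0.38. Coelomocyte, hypodermis and sperm markers had medians of 0.93, 0.47 and 0.22. The part of any of these cell types in the mRNA values of gpx-4 and osgn-1 was not tested. The oocyte markers had a median of -0.10 and summed to 18924 to 28501 CPM for wild type, against 19990 to 30891 CPM for cup-4. The germline markers had a median of -0.19 and summed to 6616 to 10542 CPM and 6342 to 8315 CPM. Over the cup-4 mRNA libraries the intestine sum ran from 25259 to 146068 CPM, while gpx-4 ran from 5.88 to 7.32 CPM and osgn-1 from 30.8 to 38.03 CPM. Without cup-4 replicate 1, the library with the highest intestine sum, the mRNA log2 fold changes were -2.10 for gpx-4 and -1.29 for osgn-1. In that fit the intestine sums of cup-4 libraries 2 and 3 were still 25259 and 45576 CPM, against 5354 and 4341 CPM in wild type. The part of intestine in these values was not tested. In small RNA, 12 of 13 intestine markers tested were above 0, with a median of 1.06. Of these 13, 10 were higher without overlap, as were 15.8% of all genes tested. Sperm markers had 15 of 16 above 0, with a median of 1.07, and coelomocyte markers 2 of 2, with 1.03. The medians of muscle, hypodermis, neuron, oocyte and sheath markers were 0.28, 0.074, 0.072, -0.057 and -0.11. The part of these cell types in the small RNA values of both genes was not tested.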

How the data were processed

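The values are whole-number read counts for 46904 genes, deposited by the authors as 1 column per library without normalization. Per the submitters' processing notes, FastQC, cutadapt, HISAT2, HTSeq and DESeq2 were used with build ce11. Their roles, versions and the strand setting of the mRNA counts are not given in the sources used here. Per the labels, small RNA reads are antisense to the gene. The 5 summary rows of each table were left out (44.0% to 49.1% of all counts in small RNA, 13.4% to 23.8% in mRNA). The summary row for reads without a unique alignment holds 0 in the small RNA table, which does not show how such reads were treated, and 5.54% to 13.0% in mRNA. Sequence that gpx-4 or osgn-1 may share with other genes was not analysed here. A table of gene names matched 44017 identifiers.

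Each assay was fitted by itself in R 4.3.3 with edgeR 4.0.16 (filterByExpr, TMM, glmQLFit with robust estimation, glmQLFTest), genotype alone, and Benjamini-Hochberg adjustment over all genes with a threshold of 0.05. The SE was taken from the fitted value and its F statistic. Tried in its place, singly, were DESeq2 1.42.0, limma-voom (limma 3.58.1), a replicate block, RLE size factors, total counts, filters (none, or mean count 50), batches 2 and 3, and the omission of each replicate in turn. The labels tie replicate numbers to batches, so the numbers pair the samples. The main fit leaves this pairing out, as the labels state no batch term of a model, and the replicate block takes it up. Deviations of same-batch libraries correlated at 0.081, 0.092 and 0.15 in small RNA. In mRNA the values were -0.13 and 0.49, and the 2 wild-type deviations mirror each other. All replicate pairs differed by more than counting noise (lowest chi-square over its degrees of freedom 17.8). The submitters call the replicates biological, but nothing says that they came from separate cultures, so p-values measure the spread between these samples.

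On simulated counts with 200 changed genes, the fit called 79% of genes changed by 1 on the log2 scale and 100% of those changed by 2 in small RNA (13006 genes tested), and 14% and 75% in mRNA (12339 genes tested). These counts followed the trend of spread with level, without a spread of each gene's own, a batch difference or any other genotype difference. The fit of the real mRNA counts called 0 genes, so these shares are not read as the sensitivity in these data. The genes, lists and naming rule (genes past the threshold, else the 4 redox and 3 bridge genes of lowest p, the peroxidases above 1 CPM, 3 neighbours on each side and 3 most alike genes) were chosen with earlier results of these data known.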

Additional observations from a re-analysis of the deposited data

How the results depend on the processing

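The log2 fold changes of gpx-4 and osgn-1 kept their direction under every alternative listed above. They moved by less than the replicate spread, taken as the pooled SD of log2 CPM of single libraries and not as the SE. Over the alternatives they ran from 1.01 to 1.32 (gpx-4 small RNA), -2.18 to -1.97 (gpx-4 mRNA), -1.93 to -1.76 (osgn-1 small RNA) and -1.40 to -1.21 (osgn-1 mRNA). The replicate block gave 1.14, -2.02, -1.87 and -1.21. The small RNA value minus the mRNA value was 3.16 for gpx-4 and -0.57 for osgn-1. With 1 replicate left out, that of gpx-4 ran from 3.06 to 3.43. The highest, without wild-type replicate 2, had moved by more than the replicate spread of 0.263. Total counts shifted the median of all genes in small RNA by 0.11. In mRNA that median shifted by -0.18 without cup-4 replicate 1 and with batches 2 and 3 only, and by -0.10 with a mean count of at least 50.

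Counts of calls depended on the setting, and the cause was not tested. In small RNA the 149 genes called became 1173 in DESeq2, 403 with batches 2 and 3 only and 1651 without a filter. They became 263 with the replicate block and 13 to 406 with 1 replicate left out. They were 147 with RLE size factors, 186 in limma-voom, 206 with a mean count of at least 50 and 219 with total counts. In mRNA the 0 became 981 in DESeq2, 313 without a filter and 199 with the replicate block. Other redox genes called in small RNA were 1 in DESeq2 and 2 without a filter, and 7 in mRNA in DESeq2. Bridge genes called in small RNA were 4 in DESeq2, 2 with RLE size factors, 2 in limma-voom, 5 without a filter, 0 with batches 2 and 3 only, the replicate block or total counts, and 0 to 2 with 1 replicate left out. Neighbour genes called in small RNA were 2 in DESeq2, 2 without a filter, and 1 with batches 2 and 3 only or the replicate block. The share of all genes called was not computed for each alternative, so nothing is read from these counts of listed genes.

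Signs turned only in genes that were not called. In mRNA gpx-5 was at -0.052 in DESeq2, -0.050 with RLE size factors, -0.48 with batches 2 and 3 only or without cup-4 replicate 1, -0.0042 without a filter, -0.30 with the replicate block, -0.11 with total counts and -0.47 without wild-type replicate 3. Without that replicate gpx-1 was at -0.19 and gpx-3 at -0.13, and without cup-4 replicate 2 gpx-3 was at -0.0065. In small RNA total counts gave 0.0053 for gpx-8, 0.038 for Y69A2AR.1, 0.094 for Y94H6A.3 and 0.040 for Y94H6A.17. Batches 2 and 3 gave 0.0018 for Y69A2AR.1, 0.083 for Y94H6A.3 and 0.19 for cyp-25A6. Y94H6A.3 was at 0.013 in limma-voom, 0.042 with a mean count of at least 50, 0.021 without cup-4 replicate 2 and 0.12 without wild-type replicate 1. Y94H6A.16 was at -0.00016 in DESeq2, -0.060 without cup-4 replicate 2 and -0.038 without wild-type replicate 3. Y94H6A.17 was at 0.018 in limma-voom, 0.13 without cup-4 replicate 1 and 0.40 without wild-type replicate 3. Y69A2AR.37 was at 0.15 without wild-type replicate 3, and pax-2 at 0.069 without cup-4 replicate 1. With 1 replicate left out, the values farthest from a turned sign were, among others, 1.14 for gpx-1, 1.25 for gpx-3 and 0.72 for gpx-5 in mRNA, and -1.19 for Y69A2AR.37, -0.39 for Y94H6A.17, -0.81 for pax-2 and -1.49 for cyp-25A6 in small RNA. In mRNA gpx-7 kept its sign, at 0.87 to 2.82.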
